A study of Mus musculus with 6 samples.

Results

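The genes described here are mouse heparan sulfatases, syndecans and glypicans, 10 of the 19937 genes measured on the arrays. They were chosen by gene family from a fixed set of symbols (Sulf1, Sulf2, Sdc1, Sdc2, Sdc3, Sdc4, Gpc1, Gpc2, Gpc3 and Gpc5) after values of the same comparison were known, so their differences between the treatments are given as a description and carry no test. Each of the 10 had 1 transcript cluster, a group of probes for 1 transcribed region, that was named for it alone. The glypican genes Gpc4 and Gpc6 are outside this set and are given with the other core proteins. Neurospheres, the floating colonies formed by precursor cells in culture, were grown from dissociated hippocampus of adult male C57BL/6J mice aged 8 to 12 weeks in medium with EGF and bFGF and were collected on day 14. The N group (n = 3 arrays) was grown with 10 µM norepinephrine and the K group (n = 3 arrays) with 15 mM potassium chloride. No culture without either agent is among these arrays, so a difference cannot be assigned to 1 of the treatments. The labels call the arrays of a group biological replicates and the neurospheres small. As the arrays are not tied to mice, p-values measure only the spread between these arrays, which may not be the spread between mice. The values are log2 values made by the authors with the robust multi-array average (RMA), and log2FC is the mean of N minus the mean of K.

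Heparan sulfate is a long sulfated sugar chain that cells attach to a small number of core proteins. Syndecans are core proteins that cross the membrane, and glypicans are held to the cell surface by a lipid anchor. Enzymes of the Golgi build the chain and add sulfate groups to it, and the secreted sulfatases encoded by Sulf1 and Sulf2 later remove 6-O-sulfate groups at the cell surface. The pattern of sulfate groups sets which growth factors the chain binds, bFGF among them, which needs heparan sulfate to engage its receptors. In brain, glypicans and syndecans take part in precursor growth, axon guidance and synapse formation.

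The medians of the arrays over all clusters lay between 6.30 and 6.40. RMA normalizes between arrays, so the closeness of the medians does not describe the arrays before processing. K replicate 3 had the lowest mean correlation with its own group (r = 0.948 across clusters), and the mean r of K replicate 2 was 0.969 with the arrays of N and 0.954 with those of its own group. For K replicate 1 these were 0.955 and 0.954. These correlations are across clusters, which are not independent replicates. The precursor marker Sox2 was bright in both groups, with 10.16 ± 0.26 for N and 9.90 ± 0.27 for K (SD, n = 3 arrays per group), and the values of Nes were 8.24 ± 0.20 and 8.76 ± 0.23. Of the 8 precursor markers, 5 had a positive and 3 a negative log2FC and 0 passed in limma. An unadjusted P under 0.05 was reached by 3 of the 8, beside 8.54% of all genes. These were Nes, lower with N, and, named after their values were seen, Vim (0.44) and Prom1 (0.40), higher with N. The mean over 8 microglial markers lay between 5.67 and 5.97 on the 6 arrays and the mean over 8 endothelial markers between 5.52 and 5.70, below the median of all clusters at 6.34. The microglial marker Cx3cr1 lay above that median, with means of 6.87 for N and 7.05 for K. Probes differ in brightness, so these levels do not show that such cells were absent.

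Of the 10 genes, Sulf1 stood apart and the other 9 differed by less than 0.5 in log2FC. In the limma fit over all genes, 1 of the 10, Sulf1, had an adjusted p under 0.05, where 0.155% of all genes did, and with any 1 array left out 0 of the 10 had. The thresholds that the study's methods set for its positive set, a log2FC over 1 in size with an unadjusted P under 0.05, were met by 1 of the 10, again Sulf1, and by 0.492% of all genes. An unadjusted P under 0.05 was reached by 2 of the 10, Sulf1 and Gpc2, and by 8.54% of all genes. All 3 N arrays lay above all 3 K arrays for 3 of the 10, Sulf1, Sdc2 and Sdc4, and for 5.78% of all genes. All N arrays lay below all K arrays for 0 of the 10 and for 7.55% of all genes. The median log2FC of the 10 was -0.03, as was that of all genes. Since the genes were picked with this comparison known, nothing is read from these counts.

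**Figure D1:**
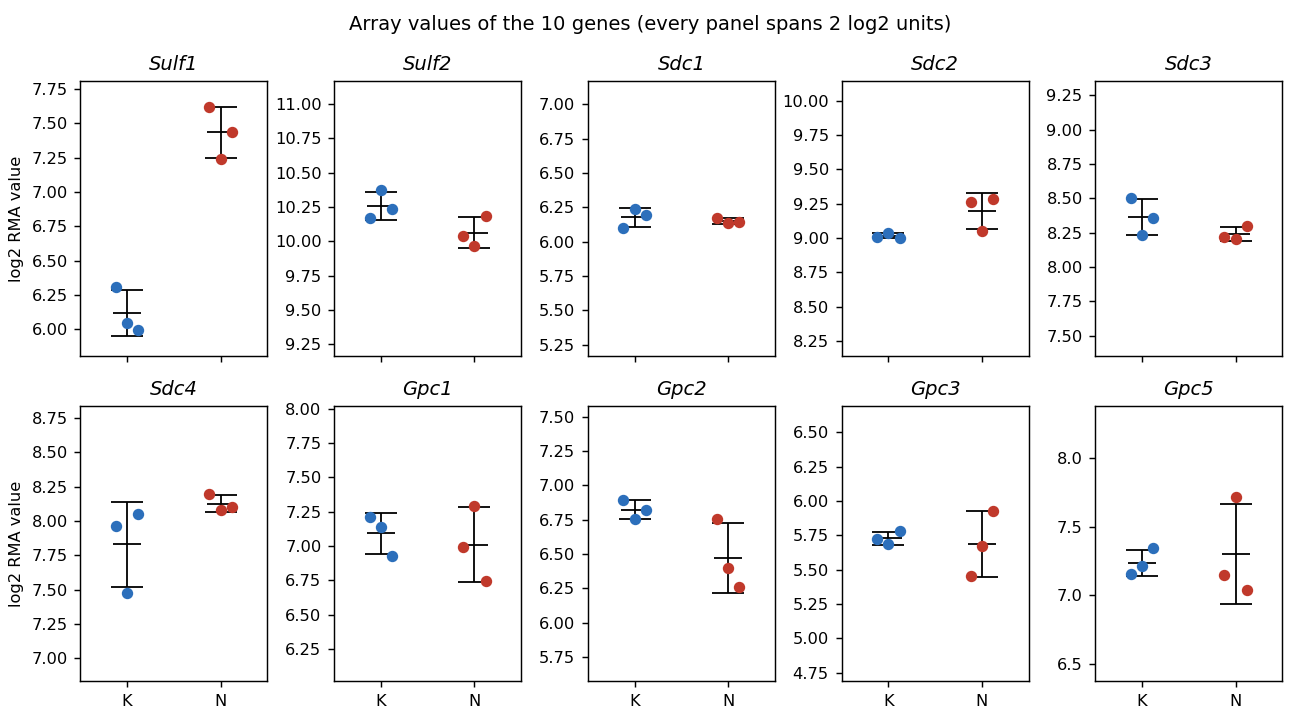
Log2 RMA values (vertical axis, each panel spanning 2 log2 units around its own centre) of the 10 genes on the K arrays (blue, n = 3) and the N arrays (red, n = 3), with bars for mean ± SD. The groups of Sulf1 are separated by a wide gap, from 6.31 on the highest K array to 7.24 on the lowest N array, while those of Sulf2 lie close together.

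Of the closely related sulfatase genes, Sulf1 was higher with N on every array, while Sulf2 had a small difference with overlapping groups. Sulf1 (transcript cluster 10344897, chr1:12692197-12861192 on GRCm38) read 7.62, 7.24 and 7.44 on N replicates 1, 2 and 3 and 6.31, 6.05 and 6.00 on K replicates 1, 2 and 3. Every N array lay above every K array, and the gap between the groups was several times the SD within them, 0.19 for N and 0.17 for K. The log2FC was 1.31 (standard error 0.15, 95% interval 0.98 to 1.65), a 2.49-fold higher value with N. Leaving out 1 array at a time gave a log2FC between 1.22 and 1.41, with 1.25 without K replicate 3. As the RNA came from whole neurospheres, fewer cells of a type and less RNA per cell cannot be told apart. The level of Sulf1 lay below the median of all clusters on the 3 K arrays and above it on the 3 N arrays.

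Sulf2 (chr2:166073899-166155683) read 10.04, 9.96 and 10.19 on the N arrays and 10.17, 10.37 and 10.24 on the K arrays. The groups overlapped, since N replicate 3 lay above K replicate 1. The log2FC was -0.20 (standard error 0.12, 95% interval -0.48 to 0.08), opposite in sign to that of Sulf1. Sulf2 was among the brighter genes of the arrays, at percentile 97.5 of the mean log2 value, with Sulf1 at percentile 56.6. Probes differ in brightness, so these places do not rank the genes by abundance.

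The syndecans differed little between N and K, with log2FC from -0.12 to 0.30 over the 4 genes and standard errors from 0.11 to 0.16. Sdc2, known for roles in dendritic spines and cell adhesion, read 9.263, 9.049 and 9.281 on the N arrays and 9.009, 9.037 and 9.003 on the K arrays. All N arrays were higher, but N replicate 2 and K replicate 2 lay close together, and the log2FC was 0.18 (standard error 0.12, 95% interval -0.09 to 0.45). Sdc4, a syndecan of focal adhesions, read 8.19, 8.08 and 8.10 with N and 7.96, 7.48 and 8.05 with K. K replicate 2 was the low array of its group. The log2FC of Sdc4 was 0.30 (standard error 0.16, 95% interval -0.08 to 0.67) and fell to 0.12 without K replicate 2.

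Sdc3, the syndecan best known from nerve cells, read 8.22, 8.21 and 8.30 on the N arrays and 8.50, 8.23 and 8.36 on the K arrays. Its groups overlapped, with a log2FC of -0.12 (standard error 0.12, 95% interval -0.40 to 0.15), which was -0.06 without K replicate 1 and -0.19 without K replicate 2. Sdc1, which is typical of epithelial and plasma cells, read 6.17, 6.14 and 6.14 with N and 6.10, 6.24 and 6.19 with K. Its log2FC of -0.03 (standard error 0.11, 95% interval -0.28 to 0.23) was close to 0 and turned positive under some normalizations and without K replicate 2. Sdc1 also lay below the median of all clusters on every array.

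RefSeq promoter windows on GRCm38.p6, from 250 bases before the transcript start to 50 after it, were given for 7 of the 10 genes. Norepinephrine through beta-adrenergic receptors and potassium chloride through calcium entry are both known to act on CREB, the factor that binds the cyclic AMP response element, so the windows were searched on both strands for its full letters TGACGTCA and for the first 5 of these letters, TGACG, which the full element contains. The full letters stood in 0 of the 8 windows of these genes (Sulf2 has 2 windows) and in 1.79% of all 32851 windows. The short letters stood in 1 of the 8, that of Sdc3, and in 20.8% of all windows. The stretch around that match is shown because it was the only one found, chr4:130792370-130792434 on the plus strand, with the match of the minus strand in capitals, 137 to 133 bases before the start. Sulf1, Sdc2 and Gpc1 are not in the table of windows. A match of letters does not show binding.
Sdc3: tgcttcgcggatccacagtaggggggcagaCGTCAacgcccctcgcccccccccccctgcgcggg

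Of the 4 glypicans, Gpc2 had the largest difference and the other 3 had log2FC within 0.1 of 0. Gpc2, a glypican of developing neurons and their precursors, read 6.75, 6.40 and 6.26 on the N arrays and 6.89, 6.75 and 6.82 on the K arrays. N replicate 1 and K replicate 2 were at the same level, and the other N arrays lay below all K arrays. The log2FC was -0.35 (standard error 0.15, 95% interval -0.69 to -0.01), and it stayed between -0.49 and -0.25 with any 1 array left out. Gpc1, the main glypican of the adult nervous system, read 6.99, 7.29 and 6.75 with N and 7.21, 7.14 and 6.93 with K. N replicates 2 and 3 lay on either side of the K group, and the log2FC was -0.08 (standard error 0.16, 95% interval -0.45 to 0.29), between -0.22 without N replicate 2 and 0.05 without N replicate 3.

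For Gpc3 and Gpc5 the N arrays were spread more widely than the K arrays, and the group means lay close together. Gpc3, a regulator of body growth, read 5.45, 5.67 and 5.93 on the N arrays and 5.72, 5.68 and 5.78 on the K arrays. Its N arrays enclosed the K arrays, it lay among the dim genes on every array, and the log2FC of -0.04 (standard error 0.14, 95% interval -0.37 to 0.29) turned positive under some normalizations and without N replicate 1. Gpc5 read 7.15, 7.71 and 7.04 with N and 7.15, 7.21 and 7.34 with K. N replicate 2 was the high array, and the log2FC of 0.07 (standard error 0.18, 95% interval -0.35 to 0.48) became -0.14 without it.

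The other genes that encode heparan sulfate core proteins were taken as a list of 10, none of which passed in limma. Of these, 2 had a positive log2FC and 8 a negative one, with a median of -0.03. At an unadjusted P under 0.05, 2 were lower with N, Gpc6 and Agrn, where 8.54% of all genes reached it in either direction. Gpc6 lies next to Gpc5 on chromosome 14, and Gpc4 lies next to Gpc3 on the X chromosome. Gpc6 read 7.54, 7.77 and 7.68 on the N arrays and 7.95, 8.06 and 8.19 on the K arrays. All N arrays of Gpc6 lay below all K arrays, with a log2FC of -0.40 (standard error 0.13, 95% interval -0.69 to -0.12, adjusted p = 0.396 from limma). Agrn, which encodes the basement membrane protein agrin that organises nerve-muscle synapses, read 6.74, 6.64 and 6.68 with N and 7.07, 6.96 and 7.18 with K. Its groups did not overlap either, with a log2FC of -0.38 (standard error 0.12, 95% interval -0.65 to -0.11, adjusted p = 0.392 from limma).

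Gpc4 had a log2FC of -0.23 (standard error 0.13) and Hspg2, which encodes perlecan of basement membranes, -0.20 (standard error 0.13). Srgn, the serglycin gene of secretory granules in blood cells, had 0.20 (standard error 0.16) and Col18a1, a collagen gene that carries heparan sulfate, 0.09 (standard error 0.14). The TGF-beta co-receptor gene Tgfbr3 and the testican genes Spock1, Spock2 and Spock3 had log2FC between -0.05 and -0.02. For all of these the 95% interval included 0.

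**Figure D2:**
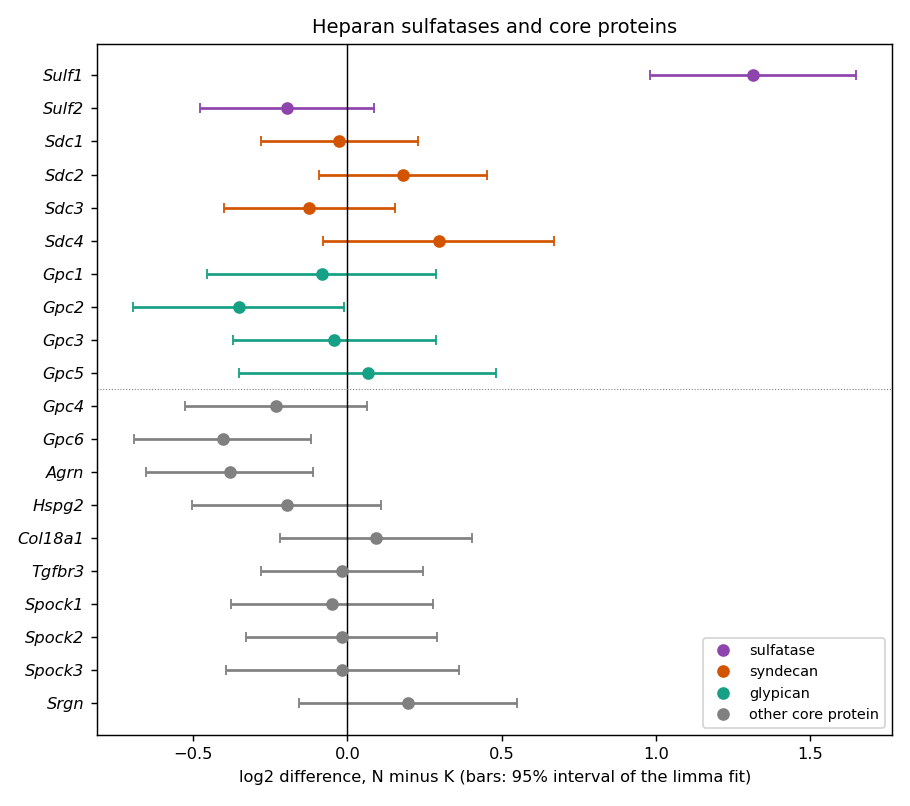
Log2 difference of N minus K (horizontal axis) for the 10 genes and, under the dotted line, 10 other core protein genes, with bars for the 95% interval of the limma fit (n = 3 arrays per group). Sulf1 lies at 1.31, and the remaining genes lie between -0.40 for Gpc6 and 0.30 for Sdc4.

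Enzymes that build, modify and break down the chain were measured for 35 genes in 3 lists. None passed in limma at an adjusted p under 0.05, nor in an ordinary linear model or with eBayes with trend and robust, and 3 of 35 (8.57%) had an unadjusted P under 0.05, 1 higher and 2 lower with N. That share was near the 8.54% of all genes. Of the 35, 12 had a positive and 23 a negative log2FC, with a median of -0.09 beside -0.03 over all genes.

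Among the 11 genes that start and extend the chain, Xylt1 had the largest difference. It encodes a xylosyltransferase that sets the first sugar on the core protein, in heparan and chondroitin sulfate alike. Xylt1 read 9.18, 9.13 and 9.38 on the N arrays and 9.79, 9.97 and 9.94 on the K arrays. All N arrays were lower, by a log2FC of -0.67 (standard error 0.13, 95% interval -0.95 to -0.38), and the gene did not pass (adjusted p = 0.131 from limma). B3galt6 and Fam20b, which encode enzymes of the same linkage region, had log2FC of -0.36 (standard error 0.16) and -0.26 (standard error 0.14) with overlapping groups.

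Among the 15 measured genes that modify the chain within the Golgi, Hs6st2 had the largest difference. It encodes a sulfotransferase that adds the 6-O-sulfate groups which the products of Sulf1 and Sulf2 remove. Hs6st2 read 6.36, 6.75 and 6.49 with N and 6.93, 7.22 and 7.35 with K. All N arrays were lower, with a log2FC of -0.63 (standard error 0.16, 95% interval -0.99 to -0.27), without passing (adjusted p = 0.268 from limma). Its relatives Hs6st1 and Hs6st3, named beside it after their values were seen, had log2FC of 0.23 (standard error 0.17) and 0.02 (standard error 0.13). Ndst2, an N-sulfotransferase gene, had -0.30 (standard error 0.21) and Hs3st1, a 3-O-sulfotransferase gene, -0.27 (standard error 0.12). In the list of 9 measured genes of chain breakdown, the lysosomal sulfatase gene Arsg had 0.32 (standard error 0.13, adjusted p = 0.553 from limma), Naglu -0.23 (standard error 0.13) and the glucuronidase gene Gusb 0.22 (standard error 0.18).

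Secreted factors that bind heparan sulfate were taken as a list of 15 genes, of which 11 had a positive log2FC and 0 passed in limma. At an unadjusted P under 0.05, 2 were higher with N, Hbegf and Mdk, and 1 was lower, Slit2, where 8.54% of all genes reached it in either direction. Hbegf encodes a heparin-binding ligand of the EGF receptor and read 8.30, 8.30 and 8.25 on the N arrays and 7.30, 7.72 and 7.32 on the K arrays. The N arrays lay close together and above all K arrays, with a log2FC of 0.84 (standard error 0.14, 95% interval 0.51 to 1.16, adjusted p = 0.0956 from limma). Mdk, the gene of the growth factor midkine, read 7.512, 7.221 and 7.857 with N and 7.002, 6.333 and 6.731 with K. Its groups did not overlap, and the log2FC was 0.84 (standard error 0.21, 95% interval 0.36 to 1.32, adjusted p = 0.269 from limma). Slit2, an axon guidance gene whose protein needs heparan sulfate to act, had a log2FC of -0.42 (standard error 0.15, adjusted p = 0.493 from limma).

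Partners of syndecans inside the cell were taken as a list of 7 genes, of which 4 had a negative log2FC. Of the 7, 0 passed, where 0.155% of all genes did. At an unadjusted P under 0.05, 2 were lower with N, Prkca and Cask, where 8.54% of all genes reached it in either direction. For 3 of the 7 all N arrays lay below all K arrays, as for 7.55% of all genes. Prkca, the gene of protein kinase C alpha, a partner of syndecan 4, had the largest difference. It read 8.45, 8.49 and 8.85 on the N arrays and 9.25, 8.98 and 9.27 on the K arrays. All N arrays were lower, with a log2FC of -0.57 (standard error 0.15, adjusted p = 0.294 from limma). Cask, a scaffold gene, had -0.34 (standard error 0.12, adjusted p = 0.498 from limma) and Tiam1, whose protein activates Rac, -0.29 (standard error 0.13, adjusted p = 0.603 from limma), both also with groups that did not overlap.

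Over all 67 measured genes of the 6 heparan sulfate lists, 0 passed in limma and 10 (14.9%) had an unadjusted P under 0.05, 3 of them higher and 7 lower with N. All N arrays lay above all K arrays for 5 of the 67 and below all K arrays for 10, beside 5.78% and 7.55% of all genes. The lists were drawn up with results of these arrays known. Their counts stand as a description, beside 8.54% of all genes at an unadjusted P under 0.05.

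**Figure D3:**
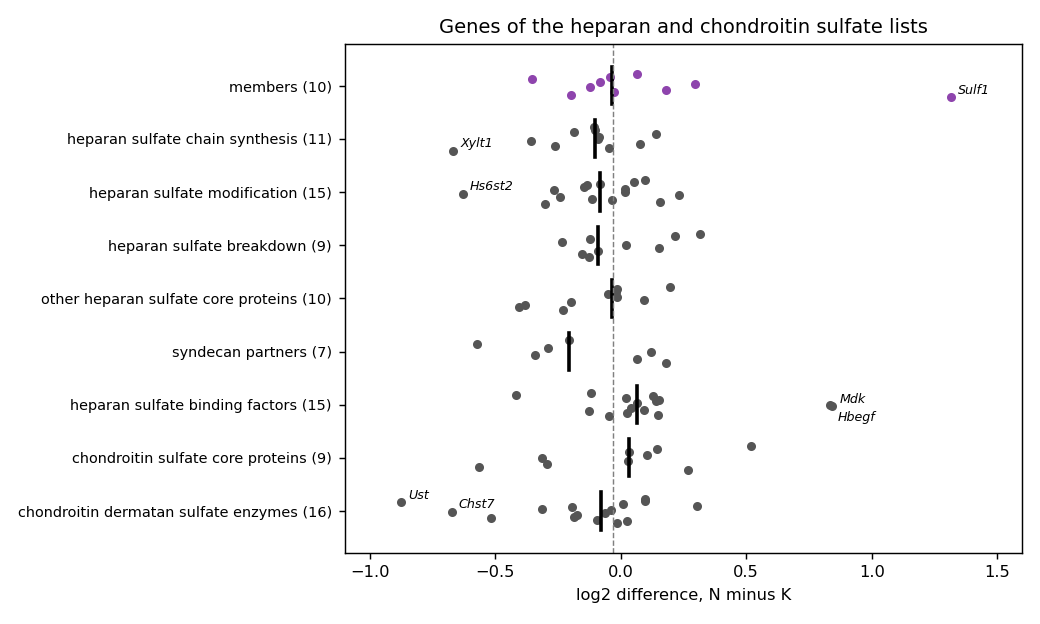
Log2 difference of N minus K (horizontal axis) of the 10 genes (top row) and of the measured genes in 8 lists, with the number of genes in parentheses, a black bar at each median and a dashed line at the median of all genes, -0.03. Genes beyond 0.6 in size are named, and Sulf1 at 1.31 is the farthest from 0.

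Genes whose profile over the 6 arrays was most like that of Sulf1 were found by the root mean square difference of the log2 values after each gene was centred on its own mean. They were Meis2, a homeobox transcription factor gene, Gch1, which encodes the first enzyme of tetrahydrobiopterin synthesis, and Scg2, a gene of secretory granules, with differences of 0.187, 0.188 and 0.188 log2 units over the 6 arrays. The root mean square of Sulf1 around its own mean was 0.673. The log2FC of Meis2 was 1.33 (standard error 0.14), that of Gch1 1.05 (standard error 0.17) and that of Scg2 1.31 (standard error 0.20). As profiles over 6 arrays in 2 groups are mostly set by the difference between the groups, many genes with a like log2FC come close to them.

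Astrocyte markers were examined beside Sulf1, and 1 of the 8, Gfap, passed in limma. A positive log2FC was found for 7 of the 8, with a median of 0.56 beside -0.03 over all genes. For 6 of the 8 all N arrays lay above all K arrays, as for 5.78% of all genes. The mean log2 level over the 8 markers lay between 9.25 and 9.67 with N and between 8.71 and 8.81 with K. Gfap, which encodes an intermediate filament protein, was higher with N than with K (log2FC 1.66, standard error 0.21, adjusted p = 0.0358 from limma), with a log2FC between 1.46 and 1.81 over the 15 alternatives. Its adjusted p was under 0.05 in 4 of these and not in the other 11, which include the ordinary linear model, the quantile, cyclic loess and median scalings, the test of every transcript cluster and any 1 array left out (range 0.00887 to 0.486). Aqp4, the water channel gene, had 1.56 (standard error 0.24, adjusted p = 0.0738 from limma) and S100b, the exception, -0.47 (standard error 0.30). The part of astrocytes in the Sulf1 difference was not tested.

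**Figure D4:**
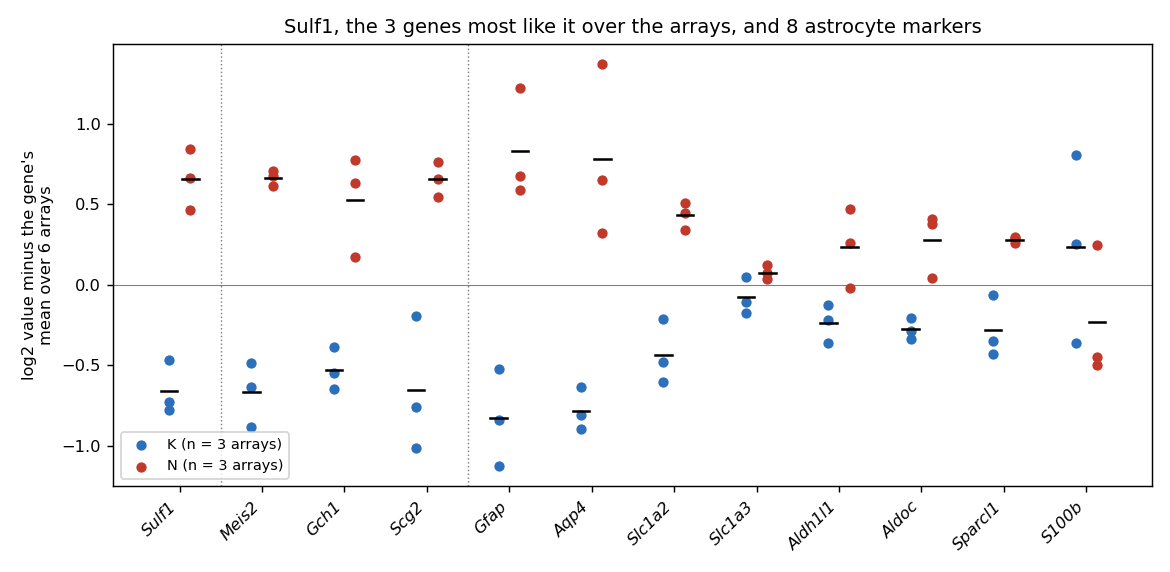
Log2 values minus each gene's mean over the 6 arrays (vertical axis) for Sulf1, the 3 genes most like it and 8 astrocyte markers, with K arrays in blue and N arrays in red (n = 3 each) and black bars at the group means. The groups of Sulf1 and of the 3 genes are separate, and S100b runs the other way from the remaining markers.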

How the data were processed

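RNA of 6 neurosphere cultures was converted to cDNA with the Applause WT-Amp ST kit. The cDNA was labelled with biotin and hybridised to Affymetrix Mouse Gene 1.0 ST arrays, 1 per biological replicate. The authors summarised the scanned images with Partek and RMA (background correction, normalization between arrays, summary per transcript cluster) and deposited log2 values, with versions and settings not given in the sources used here. RMA shrinks differences of dim probes, and probes along the whole gene average over its isoforms. The values were used as deposited. The 21640 of 34760 clusters with exactly 1 symbol in the array annotation gave 19937 genes, each by its cluster with the highest mean. The difference of N minus K came from lmFit and eBayes of limma 3.58.1 (R 4.3.3, 4 residual and 4.59 prior degrees of freedom), with Benjamini-Hochberg adjustment over all genes and a threshold of 0.05. The 3 arrays per group limit the precision, and an exact permutation test of 1 gene could not go below p = 0.1. Members and lists were chosen with earlier results of these data known. Genes named from a list are the 3 with the largest log2FC in size, all genes of the core protein list, any that passed, and Gfap, Nes and Sox2. Aqp4, S100b, Vim, Prom1, Cx3cr1, Hs6st1 and Hs6st3 were named after their values were seen. The fit was tested on simulated data. All 10 gene IDs matched RefSeq (GRCm38.p6), which gave coordinates and promoter windows. Alternatives were a replicate block, an unmoderated model, eBayes with trend and robust, a filter on dim clusters, quantile, median and cyclic loess scaling, the mean of all clusters, all clusters, and each array left out. Figures used matplotlib 3.10.9 in Python 3.11.15.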

Additional observations from a re-analysis of the deposited data

How the results depend on the processing

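With quantile, median or cyclic loess scaling the log2FC of each of the 10 genes moved by less than 1 SD. The other alternatives could not show such a move. A change of model, filter or clusters left these values as they were, and leaving out 1 of 3 arrays cannot shift a log2FC by 1 SD. Of the 10 genes, 6 kept their sign in every one of the 15 alternatives in which they were tested. Sdc1, Gpc1, Gpc3 and Gpc5 changed sign in at least 1, and of these Sdc1 and Gpc3 did so under another scaling of the arrays. The adjusted p of Sulf1 lay between 0.0191 and 0.463 over the 15 alternatives and was under 0.05 in 6. The count of the 10 genes with an adjusted p under 0.05 was 0 in an ordinary linear model without moderation, with each array centred on its median, with every transcript cluster tested and with any 1 array left out, N replicates 1, 2 and 3 and K replicates 1, 2 and 3 alike (lowest and highest count 0). Sulf1 met the thresholds of the positive set in all 15. The genes were chosen with this comparison known, and every alternative uses the same arrays. The values of Sulf1 under the alternatives therefore describe the processing and are no test of its difference. Over all genes the count at an adjusted p under 0.05 was 31 (24 higher with N), against 1 in the ordinary linear model, 12 (7 higher) with quantile normalization, 12 (8 higher) with cyclic loess normalization, 3 (2 higher) with each array centred on its median, 0 with every transcript cluster tested, and 0 to 21 with 1 array left out. In the main fit 98 genes met the thresholds of the positive set, against 377 with every transcript cluster tested. With 1 array left out the count was 90 to 212, with 212 without K replicate 2. These counts come from limma and are not the study's own set, which was made with Partek from genes with a unique RefSeq match. None of the 92 genes of the 8 lists passed in any alternative. The cause of these shifts was not tested. With the replicate number as a block (replicate block) 41 genes passed, Sulf1 among them (adjusted p = 0.0191 from limma). Same-numbered arrays deviated together only weakly (r = 0.04, 0.04 and 0.12), beside r from -0.14 to 0.11 for differently numbered arrays. The labels do not say that arrays of 1 number share a preparation, so the numbers were not taken to pair the arrays. The arrays give no measure of signal over background, which limits what can be said of dim genes such as Gpc3.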

Other observations

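Chondroitin sulfate shares its linkage region with heparan sulfate, and 25 of its genes were measured in 2 lists. None passed in limma, in an ordinary linear model or with eBayes with trend and robust, and 4 (16% of 25) had an unadjusted P under 0.05, all lower with N, beside 8.54% of all genes. Bcan, which encodes the brain proteoglycan brevican, had 8.29 ± 0.08 with N and 8.86 ± 0.19 with K (SD, n = 3 arrays per group), a log2FC of -0.56 (standard error 0.14, adjusted p = 0.263 from limma). The uronyl sulfotransferase gene Ust had -0.88 (standard error 0.32, adjusted p = 0.493 from limma), the chondroitin sulfotransferase gene Chst7 -0.67 (standard error 0.23) and the chondroitin synthase gene Chsy3 -0.52 (standard error 0.16). For each of these 4 genes all N arrays lay below all K arrays, as for 7.55% of all genes. Bgn, the biglycan gene, had 0.52 (standard error 0.28) and Cspg4, the gene of the NG2 proteoglycan, -0.31 (standard error 0.17), both with overlapping groups.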
